A study of Mus musculus with 20 samples.

Results

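The urea cycle of the liver turns toxic ammonia into urea, and its 6 genes Cps1, Otc, Ass1, Asl, Nags and Slc25a15 were followed here through colorectal liver metastasis (CRLM) in mice. They were taken by name from the 54532 genes listed in both deposited count tables, and all 6 were found. The cycle is shared between mitochondria and cytosol of the hepatocyte. Carbamoyl phosphate is made in the mitochondria by Cps1, which needs the N-acetylglutamate made by Nags, and is joined to ornithine by Otc. The product citrulline leaves for the cytosol in exchange for ornithine through the carrier Slc25a15, and Ass1 and Asl then form arginine. Arginase 1 (Arg1), which was not among the 6 and is given with the related genes, releases urea. Ass1 and Asl also serve arginine synthesis in many other cells, whereas Cps1 and Otc are textbook genes of liver and intestine.

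Bulk RNA-Sequencing was made of 14 tissue libraries and of 6 libraries of cells sorted from metastases, all from wild-type C57BL/6 mice. Normal liver of day 0 after normal saline (con) had 2 libraries, and tumor-free liver remote from the tumor in an injected mouse at 12 days post-injection (dpi) (L-con) had 1. The other tissue came from mice given 1000000 Mc38 colon cancer cells through the spleen and portal vein. It was low-content CRLM at 9 dpi (Lt, 2 libraries), medium-content CRLM at 9 dpi (Mt3, 2) and at 11 dpi (Mt2 and Mt1, 2 each), and high-content CRLM at 12 dpi (Ht, 3). Mt stands for the 6 libraries of Mt3, Mt2 and Mt1. The first and the third Ht libraries, stated in the Methods to have been made identical, were summed and counted as 1 sample, which left 2 Ht samples. The deposited counts of the summed libraries were not identical. The chi-square per degree of freedom was 27.6 between them, 26.7 between the first and the second, and 12.1 between the second and the third, and results that change with Ht as 3 libraries are given at the end. F4/80+ and CD11b+ cells were bound to magnetic microbeads from Mt2 metastases at 11 dpi, with 3 libraries each. The labels give the tissue mice as male and the Methods give female mice. In the tables, the Y-linked gene Ddx3y was counted in every tissue library and in no sorted-cell library, and Xist had 5547 to 21805 counts in the sorted-cell libraries and 0 to 3 in tissue, so the kind of sample and this difference cannot be told apart. Otc lies on chromosome X. Nothing in the labels ties same-numbered samples to 1 animal, and p-values measure the spread between these samples.

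The libraries held 16032085 to 18246623 counts in tissue and 17785496 to 20548370 in sorted cells. A count of 3, used as the floor, equals 0.146 to 0.187 CPM (counts scaled to a library size of 1000000), and floors and intervals cover counting error only. CPM values were scaled with the TMM method of edgeR, separately for tissue and for sorted cells. TPM (counts per base of gene length, scaled to a sum of 1000000), worked out here with the gene lengths in the tables, served for comparisons between genes and between tissue and sorted cells. The 12 hepatocyte genes listed as reference summed to 68260 and 72310 CPM in con and to 1988 to 2979 in Ht, and to 13570 and 11750 CPM in the second libraries of Mt2 and Mt1 against 44410 and 36180 in the first. In such tissue, fewer hepatocytes and less RNA per hepatocyte cannot be told apart. Total-count scaling in place of TMM moved the median log2 fold change of all genes from con to Ht from 0.09 to 1.28, and the share of lower genes among those called from 48.3% to 20.3%. From Mt to Ht that share went from 90% to 40.7%, and from con to Mt from 33.7% to 9.38%.

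RefSeq (build GRCm38.p6) gave promoter windows of 300 bases, 250 before and 50 from the transcription start, for 4 of the 6 members, Otc, Nags, Ass1 and Slc25a15. They are shown because Otc and Nags were nearly absent from the sorted cells and Ass1 and Slc25a15 were not (values below). The sequences run 5′ to 3′ on the gene's strand, and capitals mark each CG pair.
Otc, chrX:10252055-10252354, + strand: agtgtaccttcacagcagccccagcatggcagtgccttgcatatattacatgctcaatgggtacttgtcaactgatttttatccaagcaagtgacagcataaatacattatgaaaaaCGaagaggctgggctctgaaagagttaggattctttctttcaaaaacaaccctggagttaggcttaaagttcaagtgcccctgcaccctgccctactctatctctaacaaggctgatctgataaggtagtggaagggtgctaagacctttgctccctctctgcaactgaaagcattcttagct
Nags, chr11:102145263-102145562, + strand: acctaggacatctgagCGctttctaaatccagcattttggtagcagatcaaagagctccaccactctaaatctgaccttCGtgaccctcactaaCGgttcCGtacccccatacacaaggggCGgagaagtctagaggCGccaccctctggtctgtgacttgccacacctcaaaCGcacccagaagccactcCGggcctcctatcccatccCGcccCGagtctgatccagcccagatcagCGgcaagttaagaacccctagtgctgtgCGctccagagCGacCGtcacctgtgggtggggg
Ass1, chr2:31470020-31470319, + strand: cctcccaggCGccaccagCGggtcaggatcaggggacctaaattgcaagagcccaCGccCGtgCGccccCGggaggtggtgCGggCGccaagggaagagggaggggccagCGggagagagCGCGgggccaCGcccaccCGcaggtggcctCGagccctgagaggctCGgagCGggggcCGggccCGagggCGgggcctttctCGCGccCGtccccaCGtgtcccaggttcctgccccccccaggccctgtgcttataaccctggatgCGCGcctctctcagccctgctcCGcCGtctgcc
Slc25a15, chr8:22398572-22398871, − strand: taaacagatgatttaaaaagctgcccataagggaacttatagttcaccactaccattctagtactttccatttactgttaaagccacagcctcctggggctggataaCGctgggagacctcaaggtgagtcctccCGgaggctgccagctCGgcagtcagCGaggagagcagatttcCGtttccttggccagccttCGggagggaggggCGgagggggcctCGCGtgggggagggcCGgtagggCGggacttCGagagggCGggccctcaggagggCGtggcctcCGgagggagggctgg
The Otc window held 1 CG pair. Of the 32851 promoter windows of this length, 5.43% held fewer, and the median was 7. The Nags window held 14, the Slc25a15 window 15 and the Ass1 window 27, and 63.7%, 65.4% and 84.5% of the windows held fewer. A second RefSeq start of Slc25a15, at chr8:22398228-22398527, held 51. Both strands were searched for 6 motifs, and no matches overlapped in the windows printed here, while a pair of GC boxes overlapped in the second Slc25a15 window. The GC box GGGCGG, present in 35.7% of all windows, was matched 3 times in the Slc25a15 window shown, 2 times in Nags, once in Ass1 and not in Otc. The core TGACG of the cAMP response element (20.8% of windows) was matched once, in Nags. The letters TATAAA (13.6% of windows), CCAAT (37.4%), TTGCNNAA (C/EBP, 10.8%) and CAAAGTCCA (HNF4, 0.475%) were not found in these windows. A match is a run of letters and not a measured site.

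In the deposited annotation (GRCm38), Cps1 (ENSMUSG00000025991) lies on chromosome 1 from 67123026 to 67231259, Otc (ENSMUSG00000031173) on chromosome X from 10252305 to 10321024, and Ass1 (ENSMUSG00000076441) on chromosome 2 from 31470207 to 31520672. Asl (ENSMUSG00000025533) lies on chromosome 5 from 130011258 to 130029247, Nags (ENSMUSG00000048217) on chromosome 11 from 102145513 to 102149477, and Slc25a15 (ENSMUSG00000031482) on chromosome 8 from 22375551 to 22398597. The values count reads on all exons of a gene. Nags overlaps the antisense gene Gm11586 on the opposite strand (102145549 to 102146246), and since the counting is not stated to use strand, reads of the pair cannot be told apart. The other 5 overlap no annotated gene.

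In normal liver the 6 genes spanned a wide range of levels. By TPM, Ass1 stood highest with 4801 and 3001 in the con libraries, and Cps1 followed with 2528 and 2197. Asl was at 438.5 and 320.5, Otc at 259 and 284, Slc25a15 at 242 and 175, and Nags lowest at 86.0 and 84.3. The cytosolic enzyme Ass1 thus made up 57.5% and 49.5% of the summed TPM of the 6 genes, and Cps1 30.3% and 36.2%. Ass1 had the highest TPM of the 6 in 19 of 20 libraries, and Cps1 in the first Mt1 library. The order of Asl, Otc and Slc25a15 in con rested on 2 libraries, and the Otc and Slc25a15 ranges did not overlap. The L-con library resembled con, with TPM of 2677 for Ass1, 2114 for Cps1, 226.5 for Asl, 231 for Otc, 212 for Slc25a15 and 76.1 for Nags. On the CPM scale L-con lay below both con libraries for all members but Slc25a15, at 60.4% (Asl) to 90.5% (Cps1 and Nags) of the con mean. The albumin gene lay below both too, at 79.5%, and the share of all genes doing so was not worked out. With 1 library this has no test.

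**Figure D1:**
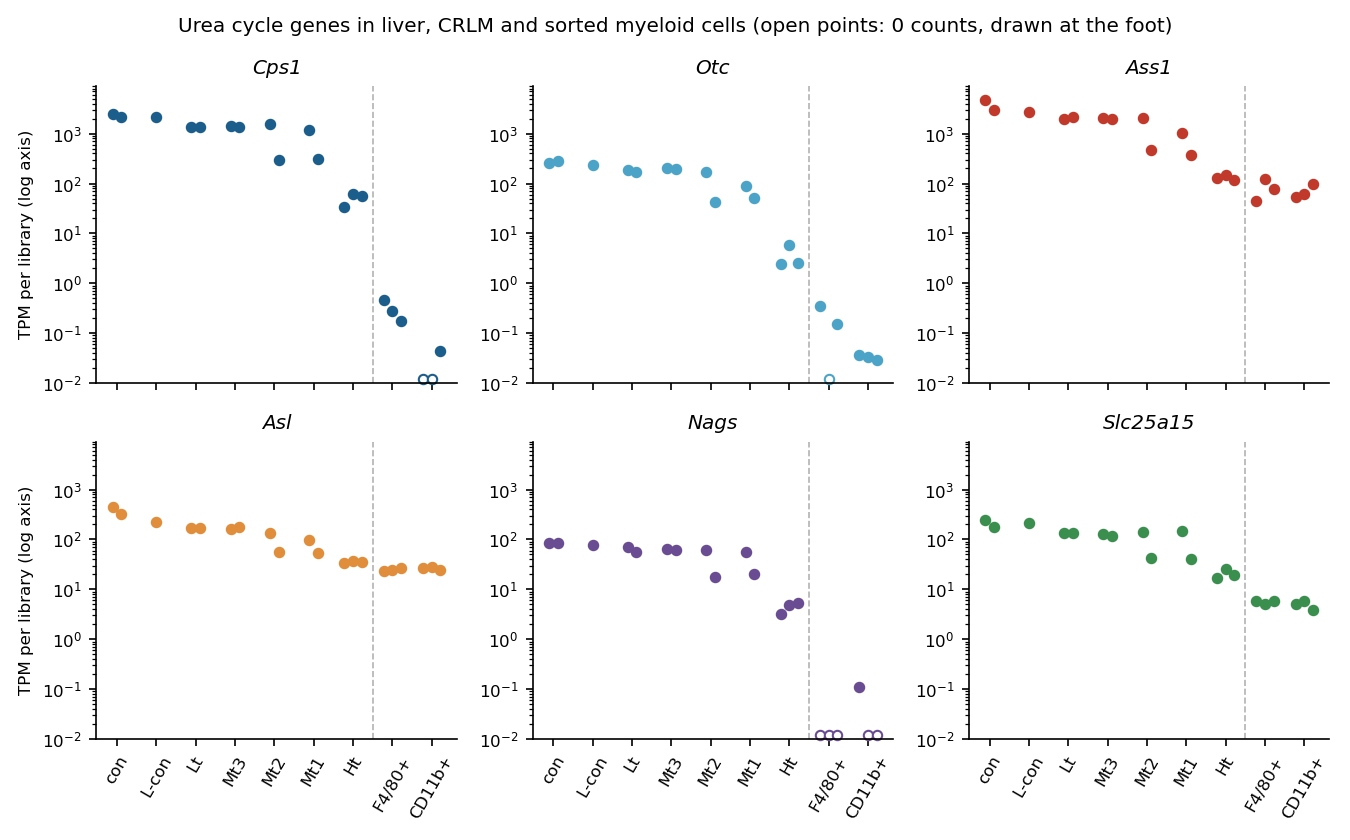
TPM (log axis) of each urea cycle gene in every library, 1 point per library, with tissue groups left and sorted cells right of the dashed line; open points had 0 counts and are drawn at the foot. All 6 genes are lowest in Ht among the tissue groups, and Cps1, Otc and Nags are at or near 0 counts in the sorted cells, while Ass1, Asl and Slc25a15 are counted in every sorted library.

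From normal liver to low-content and medium-content CRLM, the levels of the mitochondrial enzyme genes were lower than in con in every library. The con libraries had 8580 and 7401 CPM of Cps1 and the Lt libraries 4337 and 3352. Mt3 libraries had 3770 and 3573 CPM, those of Mt2 3629 and 431, and those of Mt1 2343 and 428. All Lt and Mt libraries lay below both con libraries, but the second Mt2 and Mt1 libraries lay far below the first. Otc, which forms citrulline, went from 670 and 730 CPM in con to 452 and 312.5 in Lt. Its Mt3 values were 430 and 389 CPM, its Mt2 values 311 and 47.9, and its Mt1 values 136 and 53.7. Nags, the maker of the Cps1 activator, went from 149 and 145 CPM in con to between 70.3 and 112.7 in Lt and between 13.2 and 90.5 in Mt. The carrier Slc25a15 went from 831.5 and 596 CPM in con to 422.5 and 337 in Lt and to between 57.9 and 358 in Mt. For each of the 6 members the Lt and Mt3 ranges overlapped, as did those of Mt2 and Mt1, so that neither of these pairs of groups differed beyond its spread. The Mt2 libraries lay below both Mt3 libraries for Otc, Ass1, Asl and Nags, and overlapped them for Cps1 and Slc25a15. The share of all genes separated in this way was not worked out, so no result about the members is drawn from it.

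The cytosolic enzyme genes were also lower than con in every Lt and Mt library, and a difference from the mitochondrial enzyme genes was not tested. Ass1, which joins citrulline and aspartate, went from 7081 and 4394 CPM in con to 2712 and 2255 in Lt. Mt3 had 2452 and 2212 CPM, Mt2 had 2072 and 302, and Mt1 had 878.5 and 229. Asl, which splits off arginine, went from 1294 and 939 CPM to 458 and 355 in Lt, with 382 and 406 for Mt3, 275 and 70.5 for Mt2, and 169 and 63.9 for Mt1. In both genes con stood above all CRLM libraries, and the second Mt2 and Mt1 libraries were again the lowest of Mt.

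These steps were tested with edgeR's quasi-likelihood test over all 17187 genes that passed its expression filter, which all 6 members did, with Benjamini-Hochberg adjustment. To be called, a gene needed an adjusted p no higher than 0.05 and a change of 1 or more on the log2 scale. From con to Lt, 0 of the 6 members were called, against 0.256% of all genes called lower. The largest change was that of Asl (log2 fold change -1.45, standard error 0.61, adjusted p = 0.153), which alone had an unadjusted p under 0.05 and was called by DESeq2 (adjusted p = 0.0448). All 6 were lower in both Lt libraries than in both con libraries, a separation seen in the lower direction for 27.3% of all genes. From con to Mt, 4 of the 6 members were called lower, against 10.3% of all genes. They were Asl (-2.49, standard error 0.44, adjusted p = 0.00247), Ass1 (-2.32, 0.62, adjusted p = 0.0147), Otc (-1.88, 0.56, adjusted p = 0.0237) and Slc25a15 (-1.65, 0.60, adjusted p = 0.0464). Cps1 (-1.88, standard error 0.70, adjusted p = 0.0517) and Nags (-1.51, 0.56, adjusted p = 0.0516) missed the threshold. Without the second Mt2 and Mt1 libraries, an alternative chosen after seeing the data, all 6 were called lower, and DESeq2 also called all 6. Every Mt library was below both con libraries for each member, as for 22.5% of all genes. Leaving out the first or the second con library left 1 and 2 calls, and leaving out the second Mt3 library left 2. With Mt fitted as a single group, Asl and Ass1 alone were called. Without the first Mt2 library all 6 were called, with Otc at -2.52 and Ass1 at -2.98. The 10.3% of all genes belongs to the main fit. Shares under these alternatives are not given, so their counts cannot be set against all genes. Other cells' markers moved from con to Mt too, with 8 of 10 macrophage, 6 of 7 monocyte, 6 of 6 tested neutrophil, 6 of 8 cycling and tumor and 4 of 7 stellate and fibroblast markers called higher. Called lower were 1 each of the macrophage, stellate and fibroblast, endothelial, erythroid and cholangiocyte markers. Their part in the result was not tested. From Lt to Mt, 0 of the 6 were called by edgeR and by DESeq2, 1 had an unadjusted p under 0.05 (Asl), and 0% of all genes were called, although 3282 had an unadjusted p under 0.05. Without the first Mt2 library 3 members were called lower from Lt to Mt.

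High-content CRLM, stated in the Methods to hold mostly tumor, had the lowest values of every member in tissue. Cps1 was at 43.6, 72.4 and 65.2 CPM in the 3 Ht libraries, and Otc at 2.44, 5.36 and 2.31. Ass1 was at 71.2, 75.5 and 60.2 CPM, Asl at 37.0, 38.0 and 35.9, Slc25a15 at 22.1, 30.8 and 23.6, and Nags at 2.09, 2.99 and 3.18. Every one of these values was below all 6 Mt libraries, as was the case for 23.1% of all genes. Compared with the con mean, the Ht libraries kept 0.33% to 0.766% of the Otc CPM and 0.546% to 0.906% of that of Cps1. They kept 1.05% to 1.32% of Ass1, 1.42% to 2.16% of Nags, 3.22% to 3.41% of Asl and 3.1% to 4.32% of Slc25a15. Albumin (Alb), the main plasma protein made by hepatocytes, kept 1.17% to 2.1%.

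All 6 members fell from con to Ht, against 24.1% of all genes called lower. The log2 fold changes were -7.51 for Otc (standard error 1.00, adjusted p = 3.12e-04), -6.98 for Cps1 (1.21, adjusted p = 9.78e-04) and -6.35 for Ass1 (1.04, adjusted p = 7.42e-04), or 183-, 126- and 81.5-fold. Nags fell by 5.71 (standard error 0.91, adjusted p = 6.61e-04), Asl by 4.91 (0.70, adjusted p = 4.17e-04) and Slc25a15 by 4.74 (0.92, adjusted p = 0.00178). The median over the 6 was -6.03, against 0.09 over all genes, and -4.84 with total-count scaling, under which the median of all genes was 1.28. All 6 also fell from Mt to Ht, against 13.4% of all genes called lower. The changes ran from -5.63 (Otc, standard error 0.88, adjusted p = 0.00861) and -5.10 (Cps1, 1.06, adjusted p = 0.0132) to -3.08 (Slc25a15, 0.79, adjusted p = 0.0262) and -2.42 (Asl, 0.57, adjusted p = 0.0199). Alb lay among the members, at -5.85 against con (1.36, adjusted p = 0.00459) and at -4.39 against Mt (1.20, adjusted p = 0.0325). With either Ht sample left out, 0 members were called from Mt to Ht, the adjusted p of Asl being 0.175 and 0.146, although their log2 fold changes stayed between -6.32 (Otc) and -2.38 (Asl). With the second Mt2 and Mt1 libraries left out, 6 were called. Without the first Mt2 library all 6 were also called, with smaller changes for Cps1 (-4.32), Otc (-4.97), Ass1 (-3.34) and Nags (-3.59). Without the second Ht sample, Otc stood at -8.20 from con to Ht. Shares of all genes called are not given for the fits with libraries left out. A lost or kept call there cannot be set against all genes. Markers of other cells moved with the change from con to Ht. The sum of 10 macrophage markers went from 462 and 709 CPM in con to between 1806 and 2391 in Ht, and that of 8 cycling and tumor markers from 461 and 473 to between 940 and 1072. Of these, 8 macrophage and 6 cycling and tumor markers were called higher, and 1 and 2 were called lower. From Mt to Ht, 0 of the 10 macrophage markers were called, and 2 of the 8 cycling and tumor markers were called lower, with sums of 983 to 1796 and 757 to 1501 CPM in Mt. Lower from Mt to Ht were also 5 of 6 Kupffer cell, 5 of 5 erythroid and 3 of 9 endothelial markers. From con to Ht, 5 of 5 erythroid, 5 of 9 endothelial and 3 of 6 Kupffer cell markers were lower, and 6 of 7 monocyte, 3 of 6 tested neutrophil and 4 of 7 stellate and fibroblast markers were higher, with 2 of the 7 stellate and fibroblast markers lower. Their part in the fall of the members was not tested.

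**Figure D2:**
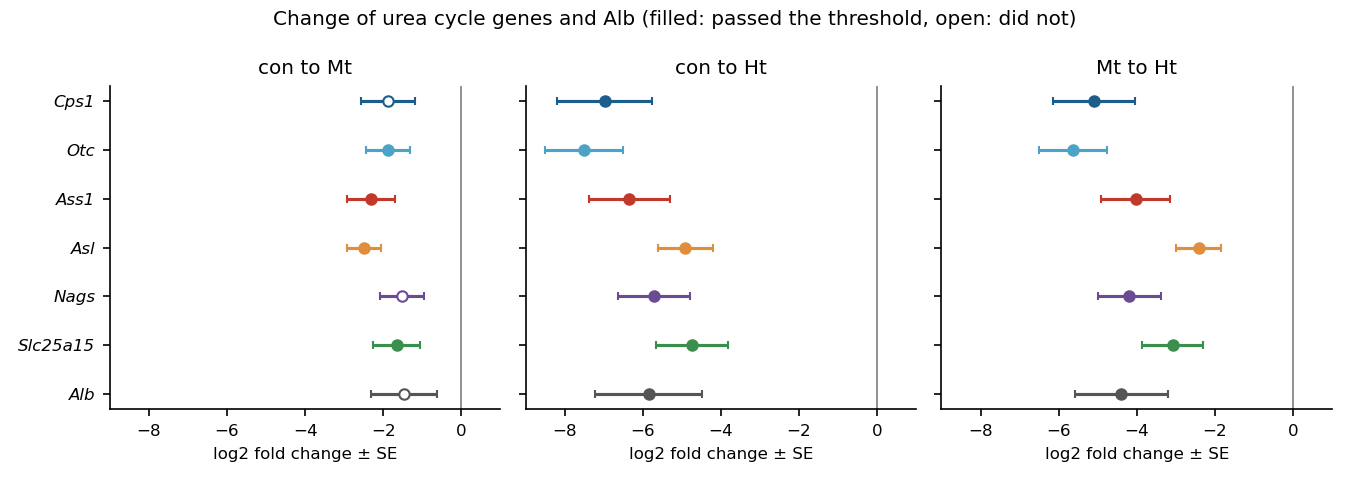
Log2 fold change of the 6 urea cycle genes and Alb (x axis) with its standard error as a bar, from con to Mt, con to Ht and Mt to Ht; filled points passed the threshold. From con to Ht and from Mt to Ht all 6 genes passed, with Otc and Cps1 farthest from 0 and Asl and Slc25a15 nearest among the members.

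Set against Alb, the members split. The count of each gene per 1000 Alb counts of the same library was compared, which takes the fall of this hepatocyte transcript as the unit. For Cps1 this was 64.3 and 65.8 in con, between 30.8 and 66.0 in the Lt and Mt libraries, and 30.3, 28.0 and 34.0 in the Ht libraries. The Ht values were below con, and the Mt and Ht ranges overlapped. Otc stood at 5.02 and 6.49 in con, at 2.25 to 7.01 in Mt, and at 1.70, 2.08 and 1.20 in Ht. The Ht values were below all Mt libraries, a separation in the lower direction seen for 0.413% of all genes. Nags stayed within 0.971 to 1.65 in every tissue library, con (1.12 and 1.29) included. Of the 6 members it kept the closest ratio to Alb.

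Asl, the last step to arginine, and the carrier Slc25a15 went the other way in Ht. Asl stood at 9.70 and 8.35 per 1000 Alb counts in con, 2.79 to 7.31 in Lt and Mt, and 25.8, 14.7 and 18.7 in Ht. Its ratio was thus below con in every Lt and Mt library and above con in every Ht library. A ratio below con throughout Mt was seen for 0.361% of all genes, and one above con in Ht for 95.3%, against 1.5% below con. Slc25a15 stood at 6.23 and 5.30 in con, 4.15 to 6.64 in Lt and Mt, and 15.4, 11.9 and 12.3 in Ht. Ass1 was at 53.0 and 39.1 in con, 26.7 and 44.4 in Lt, 14.5 to 39.9 in Mt, and 49.5, 29.2 and 31.3 in Ht, where the Mt and Ht ranges overlapped and both Ht samples, at 38.9 for the summed libraries and 29.2, lay below con. An exact two-sided permutation test of the mean log2 ratio over the 6 Mt and 2 Ht samples gave p = 0.0357 for Asl, Slc25a15 and Otc, the smallest p this design allows, without adjustment. The differences were 1.90 for Asl, 1.36 for Slc25a15 and -1.34 for Otc, with 91.8% of all genes higher without overlap in Ht. With the median of all genes so far above 0 on this scale, a p for a rise compares a gene with Alb and not with other genes. For Cps1 (-0.56), Ass1 (0.43) and Nags (0.23) the same exact permutation test gave p = 0.107, 0.393 and 0.286.

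**Figure D3:**
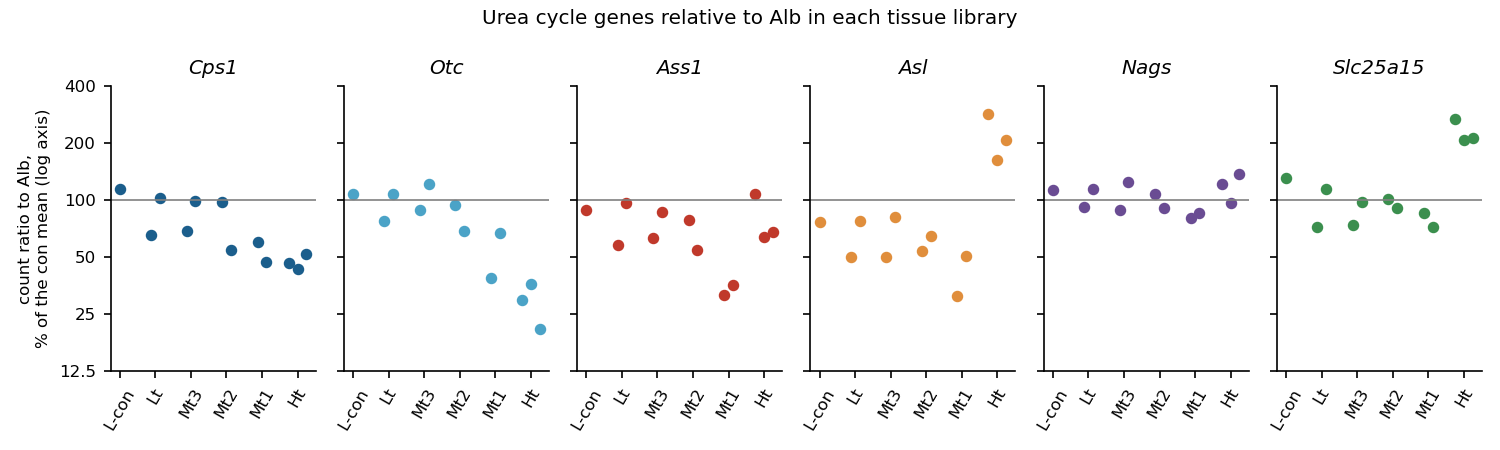
Count ratio of each urea cycle gene to Alb in every L-con and CRLM library, as a percent of the con mean (log axis; line at 100%). Asl (163% to 285%) and Slc25a15 (207% to 267%) lie above con in Ht, Otc lies below it (20.9% to 36.1%), and Nags stays near it.

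In edgeR's quasi-likelihood test with the Alb count as library size, 1 of the 6 members was called from Mt to Ht, Asl, which was higher relative to Alb (log2 difference 1.90, standard error 0.66, adjusted p = 0.00826 with Benjamini-Hochberg adjustment). On this scale 90.8% of all genes were called higher and 0.151% lower, with a median of 3.93, since most genes do not fall with hepatocyte RNA. A call in the higher direction is thus shared with most genes, and Asl at 1.90 and Slc25a15 at 1.36 (standard error 0.67, adjusted p = 0.0554) remained below that median. The other 4 lay between -1.35 (Otc, standard error 0.79, adjusted p = 0.104) and 0.42 (Ass1, adjusted p = 0.556). The call of Asl was lost without the Ht sample made of the first and the third library, which leaves 1 Ht sample. With 1 sample left out at a time, its log2 difference stayed between 1.59 and 2.15. From con to Ht, con to Mt, con to Lt and Lt to Mt, 0 of the 6 were called relative to Alb and 0 had an unadjusted p under 0.05, against 91%, 37%, 4.48% and 0% of all genes called higher and 0.186%, 0.0873%, 0.00582% and 0% lower. DESeq2 was not run on this scale.

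The choice of Alb as the unit changed which members were called. Per 1000 counts of the 12 reference genes, Alb stood at 1846 and 1648 in con and at 723, 867 and 897 in Ht, although 1 of the 12, Apoa2 (-6.36 from con to Ht), had a larger change than Alb (-5.85). With those 12 genes in place of Alb, 3 members were called lower from con to Ht, Otc (-2.76, adjusted p = 6.06e-04), Cps1 (-2.16, adjusted p = 0.00255) and Ass1 (-1.51, adjusted p = 0.0185), all by edgeR's quasi-likelihood test. Asl and Slc25a15 were then at -0.06 and 0.08, level with the reference, and Nags was at -0.87. From Mt to Ht, Asl stayed higher (1.32, adjusted p = 0.00724), while Otc (-1.94, adjusted p = 0.00295) and Cps1 (-1.23, adjusted p = 0.0269) were called lower. Fitted with con and Ht alone, the Alb scale called Otc and Cps1 lower and Asl and Slc25a15 higher. In the main fit on the Alb scale, 91% of all genes were called higher from con to Ht and 0.186% lower. A higher call there is thus shared with most genes. Shares for the fit of con and Ht alone and for the 12-gene scale are not given here.

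The make-up of the cycle's transcripts changed accordingly. Per 100 TPM of Cps1, Asl stood at 17.3 and 14.6 in con, at 8.28 to 18.8 in Mt, and at 97.6, 60.4 and 63.3 in Ht. Slc25a15 stood at 9.56 and 7.95 in con, 8.58 to 14.6 in Mt, and 50.1, 42.0 and 35.7 in Ht. For Otc the values were 10.2 and 12.9 in con, 7.59 to 16.4 in Mt, and 7.34, 9.70 and 4.64 in Ht. Of the summed TPM of the 6 genes, Asl took 5.25% and 5.29% in con and 13.1% to 15.2% in Ht, while Cps1 took 30.3% and 36.2% in con and 15.6% to 23.5% in Ht. These shares describe the same counts as the ratios above and are no further test.

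**Figure D4:**
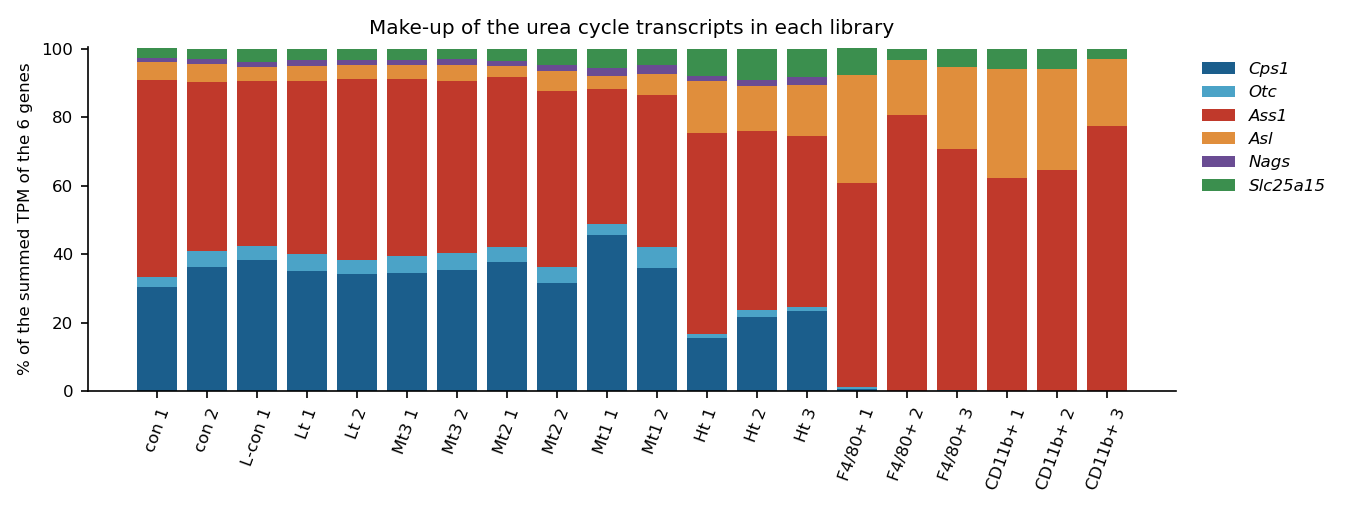
Share of each urea cycle gene (stacked bars) in the summed TPM of the 6 genes, by library. Ass1 holds 39.3% to 58.7% in tissue; Asl and Slc25a15 widen in Ht, and Cps1, Otc and Nags all but vanish in the F4/80+ and CD11b+ cells.

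The sorted cells divided the cycle more sharply. In the 3 libraries of F4/80+ cells, Cps1 had 16, 10 and 6 counts, Otc 9, 0 and 4, and Nags 0, 0 and 0. In those of CD11b+ cells, Cps1 had 0, 0 and 2 counts, Otc 1, 1 and 1, and Nags 2, 0 and 0. The mitochondrial enzymes were thus at or near the floor of 3 counts in most of these libraries. The cytosolic enzymes and the carrier were not. Ass1 was at 43.8, 124.5 and 77.8 TPM in F4/80+ cells and 53.7, 62.6 and 98.4 in CD11b+ cells, against 2013 and 474 in Mt2 tissue. Asl was at 23.2, 24.8 and 26.6 TPM in F4/80+ cells and 27.3, 28.3 and 24.6 in CD11b+ cells, against 133.5 and 55.2 in Mt2. Slc25a15 was at 5.71, 5.04 and 5.81 TPM and at 5.12, 5.92 and 3.82, against 138 and 42.8. Ht tissue lay near the sorted cells for Asl, at 33.1 to 36.8 TPM, and for Ass1, at 117 to 146. Its Slc25a15, at 17.0 to 25.6 TPM, and its Cps1, at 33.9 to 60.8 TPM, lay above all sorted libraries.

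In a joint edgeR fit of 19 samples and 18407 genes, Cps1, Otc and Nags passed the expression filter only through tissue, where they were high, so no count of calls is drawn from them. Asl, Ass1 and Slc25a15 were called lower in F4/80+ cells than in Mt2 tissue, against 25.2% of all genes, and in CD11b+ cells, against 26.3%. Their log2 fold changes in F4/80+ cells were -2.23 for Asl (standard error 0.45, adjusted p = 7.43e-04), -4.29 for Ass1 (0.75, adjusted p = 2.46e-04) and -4.38 for Slc25a15 (0.62, adjusted p = 3.69e-05). In CD11b+ cells they were -1.94, -4.20 and -4.38 (adjusted p = 0.00197, 2.59e-04 and 3.32e-05). All sizes rested on the first Mt2 library. Without it the changes of Asl were -0.94 and -0.65 (adjusted p = 0.0601 and 0.188, no longer called), those of Ass1 -2.31 and -2.23, and those of Slc25a15 -2.74 in both, the latter genes still called. Without the second Mt2 library they were -2.86 and -2.58 for Asl, -5.05 and -4.98 for Ass1, and -5.08 and -5.09 for Slc25a15. Without the third CD11b+ library, Ass1 was at -4.83 in CD11b+ cells. For the others, summed counts on the joint TMM library sizes gave a Cps1 level 3880-fold lower in F4/80+ cells than in Mt2 (95% exact Poisson interval 2750 to 5670, over 32 counts). Otc was 844-fold lower (494 to 1580, over 13 counts). For Nags, at 0 counts, the exact Poisson limit lay 722-fold below the mean of the Mt2 group. A floor of 3 counts over the F4/80+ group lay 888-fold below it. In CD11b+ cells the ratio was 63600 for Cps1 on 2 counts (17600 to 525000), 3750 for Otc on 3 (1280 to 18200) and 1370 for Nags on 2 (378 to 11300). These intervals cover counting error only and not the spread between the Mt2 libraries, where Cps1 had 56436 and 10319 counts. Tissue and sorted cells came in separate tables, each of 1 kind of sample, so that table and kind of sample cannot be told apart.

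Transcripts of hepatocyte genes were counted in the sorted cells at a low level, and their source was not tested. Alb was at 122 to 229 CPM in F4/80+ cells and at 36.5 to 106 in CD11b+ cells, the 12 hepatocyte reference genes summed to 94.4 to 151 and to 44.8 to 162 CPM, and none of the 12 was at 0 counts in any sorted library. The 12 did not move together. Relative to Alb, their log2 changes from Mt2 to CD11b+ cells ran from -2.03 to 4.89, with a median of -0.28. Per 1000 Alb counts, Ass1 stood at 157, 839 and 506 in F4/80+ cells and at 899, 1389 and 1193 in CD11b+ cells, against 36.3 and 24.97 in Mt2. Asl stood at 166.5, 335 and 346 and at 913, 1256 and 598, against 4.82 and 5.82, and Slc25a15 at 47.6, 79.2 and 88.1 and at 200, 306 and 108, against 5.82 and 5.25. Their ratios in every sorted library were above those of both Mt2 libraries. Cps1 was on the other side, at 3.85, 4.35 and 2.63 per 1000 Alb counts in F4/80+ cells against 63.7 and 35.6 in Mt2. On the Alb scale, edgeR called Asl (5.73), Ass1 (4.03) and Slc25a15 (3.69) higher in F4/80+ cells. On this scale 90.5% of all genes were called higher and 0.744% lower. In CD11b+ cells the same 3 were called higher, against 91.5% of all genes higher and 0.473% lower.

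Between the sorted populations, 0 of the 3 members that could be tested were called by edgeR or DESeq2, with 0.0771% of all genes called by edgeR (0.0701% lower and 0.00701% higher). From CD11b+ to F4/80+ cells the log2 fold change was -0.34 for Asl (standard error 0.17, adjusted p = 0.493), -0.14 for Ass1 (0.49, adjusted p = 0.898) and -0.05 for Slc25a15 (0.17, adjusted p = 0.90), and 0 had an unadjusted p under 0.05. The direction of Ass1 and Slc25a15 turned with total-count scaling (0.02 and 0.05). Cps1, Otc and Nags did not pass the filter. Summed markers of other cells lay apart, although 0 of the 7 neutrophil and 0 of the 6 Kupffer cell markers were called by edgeR. The 7 neutrophil markers summed to 186 to 521 CPM in F4/80+ cells and to 1336 to 4111 in CD11b+ cells. The 6 Kupffer cell markers summed to 653 to 2596 and to 63.6 to 139.

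Of 30 genes of ammonia and arginine handling around the cycle, 17 fell and 8 rose from con to Ht, against 24.1% and 25.8% of all genes, with a median log2 fold change of -2.86 against 0.09 over all genes. Arg1, the enzyme that releases urea, fell by 6.09 (standard error 0.99, adjusted p = 7.17e-04), from 2600 to 3663 CPM in con to between 42.0 and 50.4 in Ht. Gls2, the liver-type glutaminase that frees ammonia from glutamine, fell by 7.65. Car5a, the mitochondrial carbonic anhydrase that supplies bicarbonate to Cps1, fell by 7.32. Slc25a13, the aspartate and glutamate carrier citrin, fell by 3.76, and Slc7a2, an importer of arginine, by 6.06. Glul, which makes glutamine from ammonia, fell by 2.95, a smaller value than that of any of the 6 members, with no test of the difference.

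Of the 8 genes that rose, 7 are named here, and the share of all genes called higher was close to theirs. Aldh18a1 and Pycr1, of proline synthesis, rose by 5.76 and 4.70 (standard errors 0.47 and 0.49), and Slc7a1, another arginine importer, by 5.36 (0.57). Asns, asparagine synthetase, rose by 3.56, Gatm, of creatine synthesis, by 2.58, and Odc1, of polyamine synthesis, by 1.02. Nos2, inducible nitric oxide synthase, was also called higher (adjusted p = 0.0309 by edgeR), with 1 count in the con libraries and 66 in Ht. From Mt to Ht, 16 of the 30 fell and 0 rose by edgeR, against 13.4% of all genes called lower and 1.5% higher, and of these 7 genes Pycr1 (0.91, adjusted p = 0.0415) alone had an adjusted p under 0.05, short of the fold threshold. From con to Mt, all of these 7 but Odc1 were called higher, against 20.2% of all genes.

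**Figure D5:**
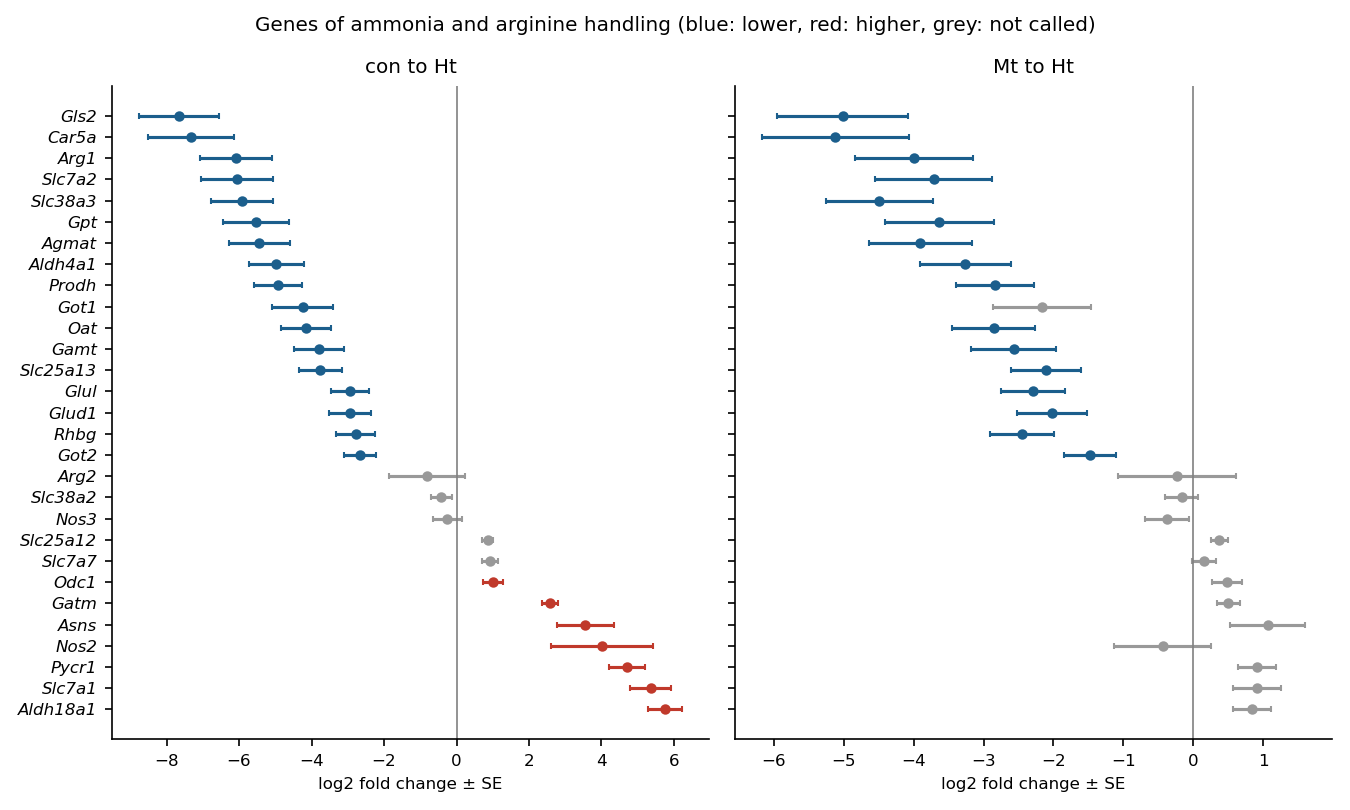
Log2 fold change (x axis) with its standard error of genes of ammonia and arginine handling from con to Ht (left) and Mt to Ht (right), 1 listed gene not drawn. Left, 17 genes are lower (blue) and 7 higher (red); right, 16 are lower and none is higher, and grey genes were not called.

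In the sorted cells Arg1 was at 169 to 276 TPM in F4/80+ cells and 65.3 to 642 in CD11b+ cells, against 318 to 942.5 in Mt2 tissue. It was called lower in F4/80+ cells (-1.79, adjusted p = 0.0488 by edgeR) and not in CD11b+ cells (-1.15, adjusted p = 0.187). Arg2, the mitochondrial arginase, had 82 counts in F4/80+ cells, 407 in CD11b+ cells and 6 in the Mt2 libraries, and was called higher in both, against 17.2% and 17.6% of all genes. Gatm was at 292 to 359 TPM in F4/80+ cells against 37.8 and 75.5 in Mt2. The counts of Gls2 were 40 and 27 in the groups of 3 sorted libraries, and Car5a had 2 and 3.

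Genes of liver amino acid catabolism were lower in Mt and Ht, while 0 of the 33 were called from con to Lt. All 33 listed genes fell from con to Ht and from Mt to Ht, with medians of -6.33 and -4.44, against 24.1% and 13.4% of all genes called lower. From con to Mt, 32 fell, against 10.3% of all genes. The steepest were Hal, which opens histidine breakdown (-8.53), and Gnmt, glycine N-methyltransferase (-8.43). Bckdhb, a subunit of the branched-chain ketoacid dehydrogenase (-2.99), and Hibch, of valine breakdown (-3.16), fell least. Of 12 genes listed as regulators of the cycle, 9 fell from con to Ht, against 24.1% of all genes called lower. The liver factor Hnf4a fell by 5.44, the glucagon receptor Gcgr by 4.88 and Cebpa by 4.17 (standard errors 0.81, 0.68 and 0.62). Sirt5, which removes acyl groups from Cps1, fell by 1.44. Cebpb (-0.88), the glucocorticoid receptor gene Nr3c1 (-0.45) and Creb1 (0.24) were not called. In F4/80+ cells Hnf4a had 38 counts in all, while Cebpa, at 399 to 496 TPM, lay within the Mt2 range of 169 to 448 or above it.

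Genes were ranked by how like their tissue profile was to each member's. Likeness was the root mean square difference of centred log2(CPM + 1) over 13 tissue samples, the other members left out. Nags was nearest to Dpys (0.16) and Agmat (0.165), Otc to Slc10a1, a bile acid importer (0.185), and Asl to Pdk2 (0.194) and Ahcy, which cleaves S-adenosylhomocysteine (0.195). Cps1 was nearest to Bhmt, of methionine recycling (0.215), Ass1 to Cth, which makes cysteine (0.235), and Slc25a15 to Smoc1 (0.237). Among the members themselves, Nags and Slc25a15 (0.321) and Cps1 and Otc (0.326) were most alike and Otc and Asl least (1.07). The points share libraries and hepatocyte content, so these values are descriptions.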

How the data were processed

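Reads of tissue and sorted-cell libraries (NEBNext Ultra RNA kit) were aligned by the authors with HISAT2 2.0.5 and counted per gene with featureCounts 1.5.0-p3, per the submitters' processing notes, on GRCm38. The deposited values are raw counts per gene, 1 table for tissue and 1 for sorted cells, with no normalization. Reads that map to several genes can be lost in such counting, and its strand setting is not given in the sources used here. The other columns of the tables (identifiers, positions, lengths) served as annotation.

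Here, edgeR 4.0.16 (R 4.3.3) was run with TMM factors, its expression filter and the quasi-likelihood test on 13 tissue samples in 7 groups, on 6 sorted-cell libraries, and on all 19 together. Mt was the mean of the 3 medium groups. For values relative to Alb, the Alb count replaced the library size. p-values were adjusted by Benjamini-Hochberg over all genes tested, with calls at 0.05 and a log2 change of 1, as in the Methods. Each test was tried on simulated counts. Libraries held 16032085 to 20548370 counts. Alternatives were DESeq2 1.42.0, other scalings, filters and reference genes, the replicate block, and leaving out libraries. L-con, with 1 library, entered no test. Named genes were the members, Alb, listed genes with the largest and smallest changes or a role in nitrogen disposal, and the nearest profiles. Some listed genes are not reported here. Members and lists were chosen with earlier results of these data known.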

Additional observations from a re-analysis of the deposited data

How the results depend on the processing

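Of 210 alternative counts of called members, 182 stayed within 1.5 times the value given. These counts add calls of both directions, so a turn of direction does not show in them. Of 1215 alternative values of single members, 1112 kept direction and call. The shares of all genes called under the alternatives are not given here. Causes were not tested. From con to Lt (0 called), DESeq2 called 1, no filter 2 and the fit of only the groups compared 1. From con to Mt (4), Mt as a single group gave 2, and leaving out 1 library gave 1 to 6. From Lt to Mt (0), no filter gave 2 and leaving out 1 library 0 to 3. From Mt to Ht (6), leaving out 1 library gave 0 to 6. Relative to Alb, the 12 hepatocyte genes in place of Alb gave 2 calls from con to Mt, 3 from con to Ht (0) and 3 from Mt to Ht (1). From con to Ht, the replicate block gave 1, Ht as 3 libraries 1 and only the groups compared 4. From Mt to Ht, the block gave 2, Ht as 3 libraries 3, the third Ht library left out 2, Mt as a single group 2, both low-Alb medium libraries left out 3, and leaving out 1 library 0 to 2. From Mt2 to F4/80+ and to CD11b+ cells, where Cps1, Otc and Nags entered only through tissue, a minimum of 10 counts left the other 3 members, all called. Of those 3, the call of Asl was lost without the first Mt2 library.

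The labels do not say that replicate numbers mark a shared animal or day, and same-numbered samples did not deviate together throughout. Their correlation was -0.168 between con and Lt, -0.0995 between con and Ht, -0.391 to -0.132 between Ht and the Lt and Mt groups, 0.31 to 0.652 between Lt and Mt, 0.766 between Mt2 and Mt1, and -0.136 to 0.0117 between the sorted populations. With the replicate block, 6 members in place of 4 were called from con to Mt, Cps1 and Nags added. With the replicate block exchanged between numbers, chosen after seeing the data, 1 member was called from con to Lt.

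Directions turned for 24 member values, none of them called. With the 12 hepatocyte genes in place of Alb, Nags was at -0.3991 from con to Lt, -0.8745 from con to Ht and -0.3765 from Mt to Ht, Asl at -0.0576 from con to Ht, and Ass1 at -0.1984 from Mt to Ht. With total-count scaling, Ass1 was at 0.0217 and Slc25a15 at 0.0475 from CD11b+ to F4/80+ cells. Leaving out 1 library at a time relative to Alb, con to Lt gave -0.6091 to 0.022 for Cps1, -0.373 to 0.0968 for Otc, -0.1189 to 0.203 for Nags and -0.473 to 0.2032 for Slc25a15. Nags ran from -0.1596 to 0.0474 from con to Mt and from -0.0567 to 0.384 from con to Ht. From Lt to Mt, Cps1 ran from -0.5376 to 0.0935, Asl from -0.5176 to 0.1162, Nags from -0.2628 to 0.0591 and Slc25a15 from -0.412 to 0.2643. From CD11b+ to F4/80+ cells, Ass1 ran from -0.5946 to 0.4959 and Slc25a15 from -0.119 to 0.0027.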
